A study of Homo sapiens with 12 samples.

Results

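The 10 genes described here encode members of the BCL2 family, 5 that oppose apoptosis (BCL2, BCL2L1, BCL2L2, MCL1 and BCL2A1) and 5 BH3-only genes that promote it (BCL2L11, BBC3, PMAIP1, BMF and BID). They were taken by symbol from a table of 62069 Ensembl genes, and all 10 were found and passed the filter on low counts, among 15284 genes tested. The list was selected with results of these libraries known, since BMF was put on it because it was higher with both shRNAs. The differences of BMF between the knockdown and induced libraries, and between the shRNAs, are therefore given as a description without a test.

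RNA-seq was performed on IMR90 ER:RAS cells, primary human lung fibroblasts engineered to carry RAS fused to the hormone-binding part of the estrogen receptor. In these cells 4-hydroxytamoxifen (4OHT) switches RAS on, which leads to oncogene-induced senescence, a lasting arrest of growth. There were 4 groups of 3 libraries, all from IMR90 ER:RAS cells at passage 13 grown for 7 days with new medium on day 4, and all labelled as day 5 of induction. The non-induced group was not given 4OHT, the induced group received 4OHT at 100 nM, and the shXPO7_3 and shXPO7_5 groups received the same and carried 1 of 2 shRNAs against XPO7, a nuclear transport receptor. According to the study, the groups without these shRNAs carried a control vector. Every group is thus derived from the same engineered fibroblasts, in which RAS is driven by a drug rather than by its own gene. The question addressed was how induction, and knockdown of XPO7 during induction, altered the transcripts of genes that set the threshold for cell death. Whether libraries within a group represent different cultures is stated neither by the labels nor by the study, so a p-value here reflects variation among libraries that may be technical only.

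The proteins meet on the outer membrane of mitochondria. BAX and BAK1 form pores there that release cytochrome c and start the caspase cascade, the anti-apoptotic proteins hold them in check, and BH3-only proteins bind the anti-apoptotic ones or activate BAX and BAK1 directly. Senescent cells are known for resistance to apoptosis and for dependence on anti-apoptotic BCL2 proteins, which drugs of the BH3-mimetic class inhibit. Much of the control of these proteins lies in their turnover, phosphorylation and splicing, and counts per gene do not resolve isoforms of opposite function such as those of BCL2L1, MCL1 and BCL2L11.

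Total counts were 28534141 to 60397769 per library (median 35319409). XPO7 checked the labels: its level was 127 to 144 CPM (counts scaled to the size of each library, with TMM factors) in the induced libraries, 26.4 to 28.7 CPM with shXPO7_3 and 50.8 to 54 CPM with shXPO7_5. All 10 fibroblast markers listed were measured in every library, with COL1A1 at 6400 to 10500 CPM. On induction 5 of the 10 were called lower and 0 higher by edgeR, from DCN (927 to 1030 CPM without and 92.6 to 98 CPM with induction, adjusted p = 3.33e-11) to COL3A1 (adjusted p = 0.0118). Of all genes tested, 26.1% were called lower and 24.8% higher on induction. With shXPO7_5, PDGFRB was called higher (adjusted p = 0.0256 by edgeR), and with shXPO7_3 none was. Over all genes tested, 0.589% were called with shXPO7_5 and 0.124% with shXPO7_3. The part of these moves in the members' values was not tested. CD3E, KRT5, KRT14, PECAM1 and CDH5 were at 0 in all 12. Of the epithelial, immune and endothelial markers, EPCAM, VWF and KDR passed the filter, at no more than 4.17 CPM. EPCAM fell on induction (adjusted p = 0.0225 by edgeR), and KDR was at 0.219 to 0.444 CPM in the induced and 0.809 to 1.1 CPM in the shXPO7_3 libraries, without overlap (log2 fold change 1.42, adjusted p = 0.15 by edgeR). GC-rich transcripts were not equally represented in all libraries. The correlation across genes (Spearman) between transcript GC content and the log ratio to the induced mean was 0.57 in shXPO7_3 replicate T and 0.61 and 0.78 in shXPO7_5 replicates T and B, against -0.34 to 0.31 in the other 9. Genes within a library are not independent replicates, and these values serve as a description. In bulk RNA, fewer cells expressing a gene and less RNA per cell cannot be told apart.

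Sequence before the start site is shown for BMF, which differed with both shRNAs, and for PMAIP1, the BH3-only gene with the largest rise on induction. Windows of 250 bases before a RefSeq start (GRCh38.p14) were found for 8 of the 10 members, and where RefSeq gave several starts, as the 2 of BMF, the window farthest upstream was taken. RefSeq and GENCODE starts differ, so what is printed stops where the gene begins in GENCODE release 29 (GRCh38). By that annotation BMF (ENSG00000104081) spans chr15:40087890-40108892 and PMAIP1 (ENSG00000141682) chr18:59899948-59904306. The positions of MCL1 (ENSG00000143384) and BCL2 (ENSG00000171791) are chr1:150574551-150579738 and chr18:63123346-63320128. BCL2A1 (ENSG00000140379) spans chr15:79960889-79971446, and its RefSeq window lies wholly inside that span and is not printed. Capitals mark E-boxes (CANNTG, the element bound by E proteins such as TCF3 and by MYC), AP-1 sites (TGANTCA) and cAMP response elements (TGACGTCA), all of which read the same on both strands and do not overlap in these windows. The BMF stretch is chr15:40108893-40109129 on the minus strand, and the PMAIP1 stretch is chr18:59899746-59899947 on the plus strand.
BMF: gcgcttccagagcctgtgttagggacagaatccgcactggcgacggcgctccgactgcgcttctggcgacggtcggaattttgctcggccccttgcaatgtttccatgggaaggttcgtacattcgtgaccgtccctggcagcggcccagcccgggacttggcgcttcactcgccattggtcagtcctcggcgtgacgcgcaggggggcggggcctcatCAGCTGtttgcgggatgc
PMAIP1: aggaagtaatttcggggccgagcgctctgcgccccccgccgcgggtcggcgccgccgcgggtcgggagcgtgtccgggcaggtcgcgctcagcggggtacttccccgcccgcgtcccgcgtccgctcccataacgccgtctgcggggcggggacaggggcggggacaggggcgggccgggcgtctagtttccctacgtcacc
The BMF window held 1 E-box, which begins 31 bases before the RefSeq start, and the PMAIP1 window held none of the 3 elements. Over the 8 members, 4 windows held an E-box (BBC3, BID, BCL2A1 and BMF), 1 an AP-1 site (BBC3) and 0 a cAMP response element. Among all 35116 windows of the same length, 61.8% held an E-box, 6.57% an AP-1 site and 1.65% a cAMP response element. These matches describe the letters only.

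**Figure D1:**
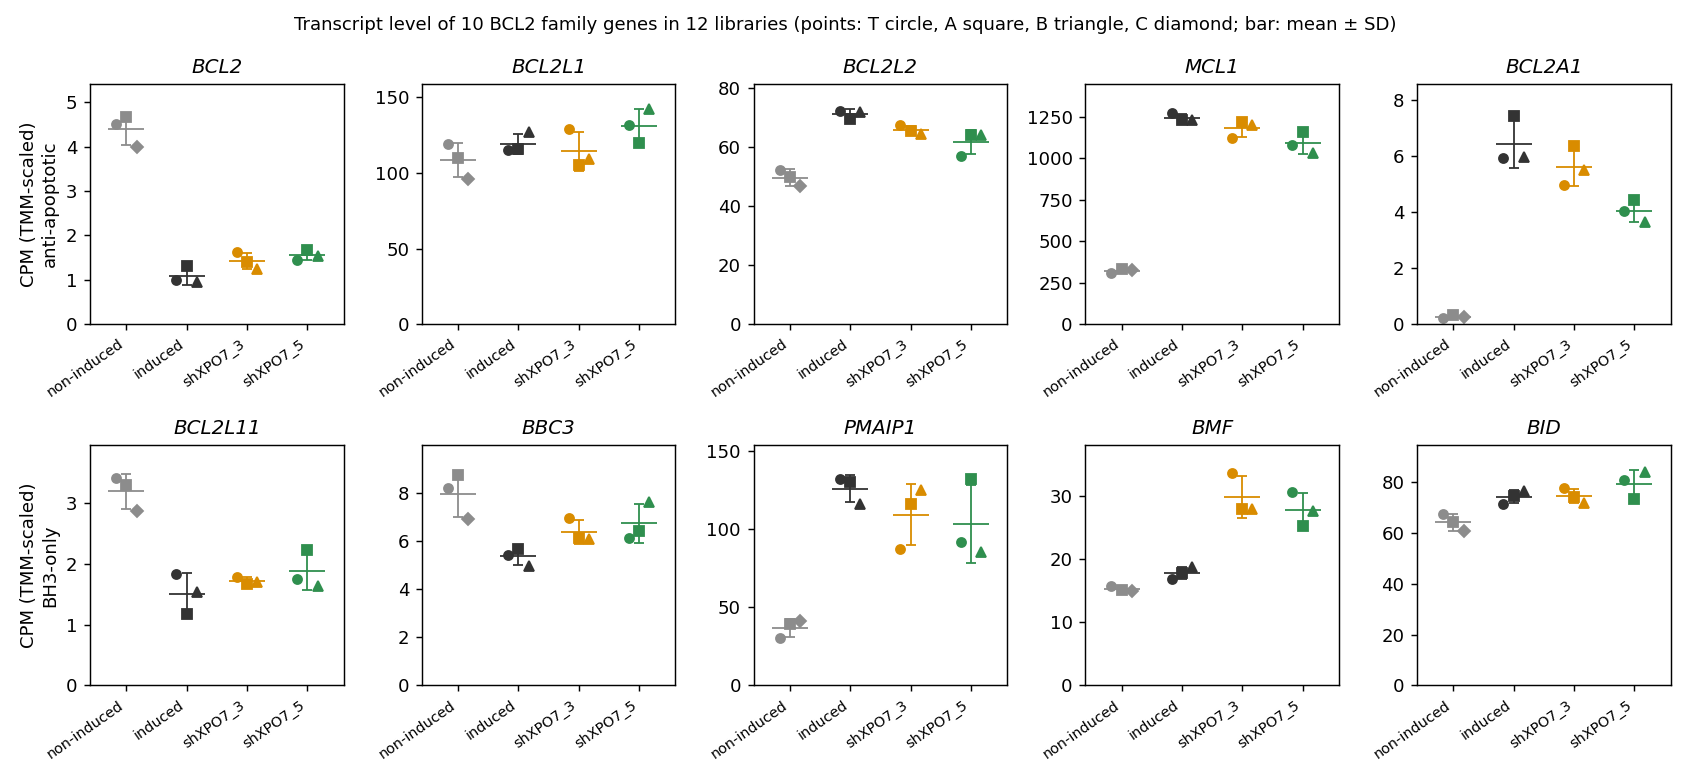
Transcript level in CPM (vertical axes, linear from 0) of each member in the 12 libraries, with 1 point per library and the mean ± SD (n = 3) per group. MCL1 and BCL2A1 were higher and BCL2 lower in every induced library than in every non-induced one, and BMF was at 25.2 to 33.7 CPM in the 6 knockdown libraries against 16.8 to 18.8 CPM in the induced ones.

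Induction shifted the anti-apoptotic genes unequally. MCL1, an anti-apoptotic protein with a very short half-life, and BCL2A1, a small anti-apoptotic gene known as a target of NF-kB, rose, and so did BCL2L2, while BCL2 itself, the founding member, fell. Of the BH3-only genes, PMAIP1 and BID rose and BCL2L11 and BBC3 fell. In all, 8 of 10 members were called in edgeR's quasi-likelihood test at an adjusted p under 0.05, 5 higher and 3 lower, and 9 had no overlap between the groups (6 higher, 3 lower). These counts stand against a large background: 50.9% of all genes tested were called on induction, 24.8% higher and 26.1% lower, and 63.2% had no overlap. The median log2 fold change of the members was 0.21, against -0.01 over all genes tested. With 3 libraries against 3, an exact permutation test cannot give a p under 0.1, which all 9 non-overlapping members reached.

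MCL1 was measured at 311, 333 and 325 CPM in the non-induced libraries (T, A and C) and at 1270, 1230 and 1230 CPM in the induced ones (T, A and B). The induced libraries lay close together, far above the others, a 3.85-fold difference (log2 fold change 1.95, SE 0.062, adjusted p = 1.82e-10 by edgeR). BCL2A1 was at 0.216, 0.316 and 0.255 CPM before induction, which rests on 7, 13 and 9 counts, and at 5.93, 7.44 and 5.95 CPM after it. It had the largest change of the members, 23.9-fold (log2 fold change 4.58, SE 0.19, adjusted p = 1.38e-09 by edgeR), from a level near the lower end of what was tested. BCL2L2, which encodes BCL-W, rose from 52.3, 49.9 and 46.7 CPM to 72.4, 69.4 and 71.9 CPM (1.44-fold, log2 fold change 0.52, SE 0.07, adjusted p = 5.77e-05 by edgeR).

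BCL2 moved the other way. It was at 4.51, 4.66 and 4 CPM in the non-induced libraries and at 0.984, 1.31 and 0.948 CPM in the induced ones, so that every induced library was below the lowest non-induced one. The level was 4.12-fold lower (log2 fold change -2.04, SE 0.15, adjusted p = 3.1e-07 by edgeR). BCL2L1, the source of BCL-XL, was at 119, 110 and 96.3 CPM without and 115, 116 and 127 CPM with induction. The groups overlapped, and the difference did not pass the test (log2 fold change 0.14, 95% confidence interval -0.08 to 0.36, adjusted p = 0.282 by edgeR). After a correction of each library for trends in GC content and transcript length it did (0.28, SE 0.044, adjusted p = 6.63e-05 by edgeR). With that correction all 10 members and 9898 of 15284 genes were called on induction, against 8 and 7777 in the main fit. Exons of the antisense gene ABALON cover 43% of the exon bases of BCL2L1, and 19.4% of those of BCL2L2 are shared on the same strand with the read-through gene BCL2L2-PABPN1, so both levels carry this uncertainty. ABALON was not among the genes counted, and BCL2L2-PABPN1 had 195 counts over all libraries against 28192 for BCL2L2.

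Among the BH3-only genes, PMAIP1, which encodes NOXA, a partner of MCL1 and BCL2A1, was at 30.2, 39.1 and 41.2 CPM in the non-induced and 132, 130 and 116 CPM in the induced libraries. The groups stood well apart, with a 3.42-fold rise (log2 fold change 1.77, SE 0.18, adjusted p = 5.72e-06 by edgeR). BCL2L11, the gene for BIM, which binds all anti-apoptotic members, fell from 3.4, 3.3 and 2.86 CPM to 1.83, 1.17 and 1.53 CPM (log2 fold change -1.06, SE 0.17, adjusted p = 0.000195 by edgeR). Its counts were 33 to 136 per library, and 10.9% of its exon bases overlap on the opposite strand with the far more abundant lincRNA MIR4435-2HG, so its level is uncertain where strand was not used in counting.

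BBC3, which encodes PUMA, a protein that binds all anti-apoptotic members, fell from 8.19, 8.74 and 6.91 CPM to 5.44, 5.67 and 4.98 CPM (log2 fold change -0.57, SE 0.12, adjusted p = 0.00155 by edgeR). BID, which caspase 8 cleaves to link death receptors to mitochondria, was at 67.4, 64.2 and 60.7 CPM before and 71.4, 74.6 and 76.5 CPM after induction. The rise was small and its call marginal (log2 fold change 0.21, SE 0.072, adjusted p = 0.0287 by edgeR). Without non-induced replicates A or C, or without induced replicates A or B, the log2 fold change was 0.201, 0.175, 0.211 and 0.176. The adjusted p by edgeR was then 0.0726, 0.0952, 0.0712 and 0.103. With upper-quartile scaling the median of all genes moved to -0.105, and BID was at 0.11 (adjusted p = 0.344 by edgeR).

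BMF, which encodes a BH3-only protein held on the dynein light chain DYNLL2 and known to be released in damaged or detached cells, was at 15.8, 15.1 and 15 CPM in the non-induced libraries and at 16.8, 17.9 and 18.8 CPM in the induced ones. Every induced library was higher, yet the difference did not pass the test (log2 fold change 0.22, SE 0.098, adjusted p = 0.079 by edgeR). It did after the GC and length correction (0.37, adjusted p = 0.000387 by edgeR), in a fit to these 2 groups only (adjusted p = 0.0291) and without shXPO7_3 replicate T (adjusted p = 0.0462). In all, BMF was called in 4 of 21 other fits. Among those where it was not were upper-quartile scaling (0.12, adjusted p = 0.413 by edgeR), the replicate letter as a block (adjusted p = 0.137 by edgeR) and DESeq2 (adjusted p = 0.112). The induced libraries of this comparison are those against which BMF was chosen.

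**Figure D2:**
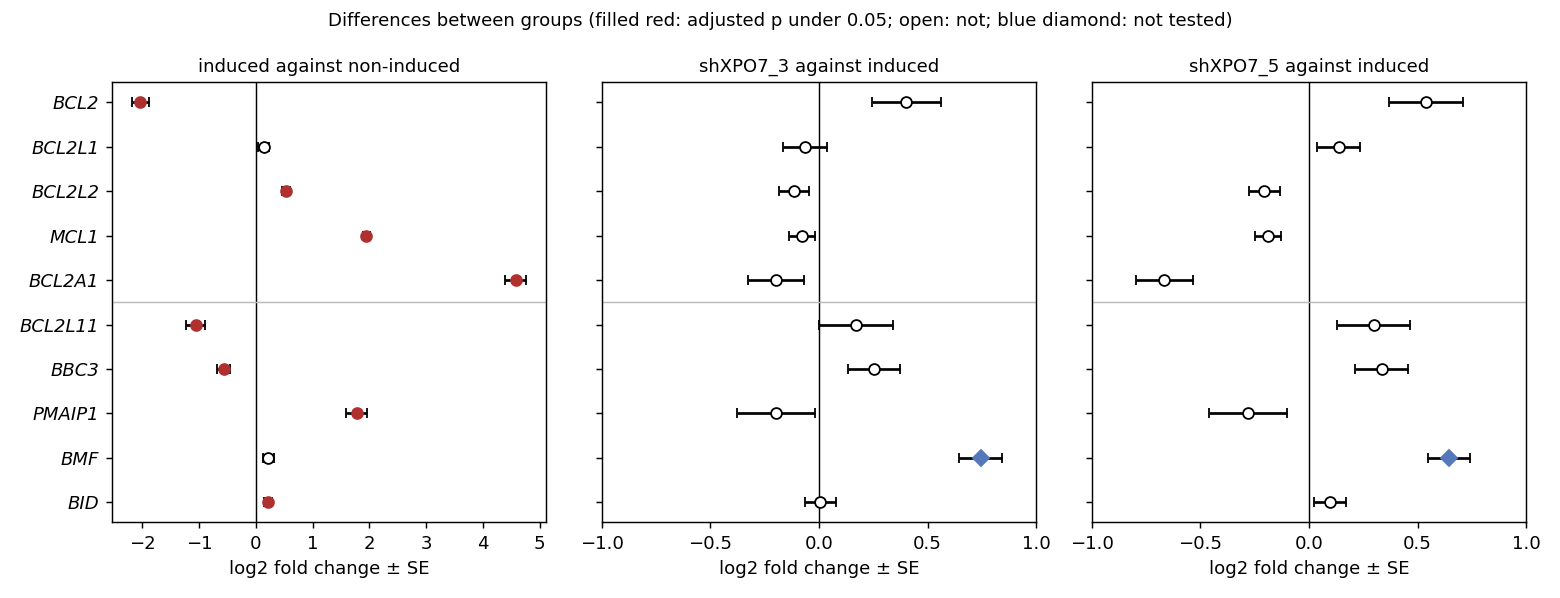
Log2 fold change ± SE (horizontal axes) of the 10 members in 3 comparisons of 3 libraries each, with the anti-apoptotic genes above the grey line, and a wider scale for induction than for the knockdowns. On induction 8 members were called, from -2.04 for BCL2 to 4.58 for BCL2A1, beside 50.9% of all genes tested. With either shRNA 0 of the 9 members tested were called, beside 0.124% (shXPO7_3) and 0.589% (shXPO7_5) of all genes tested. Both knockdown comparisons share the induced libraries.

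Genes were compared per kilobase of exon, counting all annotated exons rather than those of the isoforms expressed. The order of the genes depends on that length. MCL1 led in every group, with a mean level of 73.8 ± 2.6 CPM per kb (SD, n = 3) in the non-induced and 285 ± 4.7 CPM per kb (SD, n = 3) in the induced libraries. In the induced group it was followed by PMAIP1 (56.3 ± 3.9), BCL2L1 (36 ± 2.1), BCL2L2 (17 ± 0.38), BID (16.7 ± 0.58), BCL2A1 (5.92 ± 0.8), BMF (3.27 ± 0.18), BBC3 (1.69 ± 0.11), BCL2L11 (0.227 ± 0.05) and BCL2 (0.0919 ± 0.017), all as mean CPM per kb ± SD over 3 libraries. The neighbours BCL2L2 and BID, with ranges of 16.6 to 17.3 and 16 to 17.2 CPM per kb, did not differ beyond their spread. In the non-induced group BCL2L1 (32.8 ± 3.5 CPM per kb) stood above PMAIP1 (16.5 ± 2.6 CPM per kb), so that the order of these 2 was exchanged on induction. BCL2A1 passed from the last place of the 10 (0.241 ± 0.046 CPM per kb, n = 3) to the sixth. With shXPO7_3 BMF was at 5.48 ± 0.61 and BCL2A1 at 5.15 ± 0.63 CPM per kb, with overlapping ranges, and with shXPO7_5 BMF (5.11 ± 0.49) lay above BCL2A1 (3.72 ± 0.36), again as mean CPM per kb ± SD over 3 libraries.

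As a description of the transcript balance, the summed level of the 5 anti-apoptotic genes was divided by that of the 5 BH3-only genes in each library, per kilobase and on the log2 scale, without a test. The ratio was 1.79, 1.68 and 1.62 in the non-induced libraries and 2.12, 2.08 and 2.21 in the induced ones, which do not overlap. It was 2.27, 2.13 and 2.04 with shXPO7_3 and 2.18, 1.95 and 2.2 with shXPO7_5, spread around the induced values. Without division by length it was 2.67, 2.63 and 2.56 with shXPO7_3 and 2.6, 2.49 and 2.59 with shXPO7_5. The induced values were then 2.69, 2.64 and 2.72, above all shXPO7_5 libraries and overlapping with shXPO7_3. The anti-apoptotic sum was 315 to 332 CPM per kb with shXPO7_3 and 298 to 320 with shXPO7_5, below the induced 341 to 347. The BH3-only sums overlapped with the induced ones. MCL1 made up 59.2% to 64.5% of the anti-apoptotic sum in the non-induced and 82.2% to 83.5% in the induced libraries, and PMAIP1 made up 39% to 49.3% and 69.8% to 73.6% of the BH3-only sum. The log2 ratio of MCL1 to PMAIP1 alone, per kilobase, was 2.4, 2.12 and 2.01 in the non-induced and 2.3, 2.28 and 2.44 in the induced libraries, which overlap. Leaving both genes out of the sums, a choice made after the values were seen, it was 1.1 to 1.21 in the non-induced, 1.41 to 1.45 in the induced, 1.15 to 1.19 in the shXPO7_3 and 1.14 to 1.25 in the shXPO7_5 libraries. Without BMF as well, the ranges were 1.33 to 1.43, 1.64 to 1.69, 1.5 to 1.58 and 1.49 to 1.57 in the same order. Both knockdown groups lay between the other 2 groups in this last measure.

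**Figure D3:**
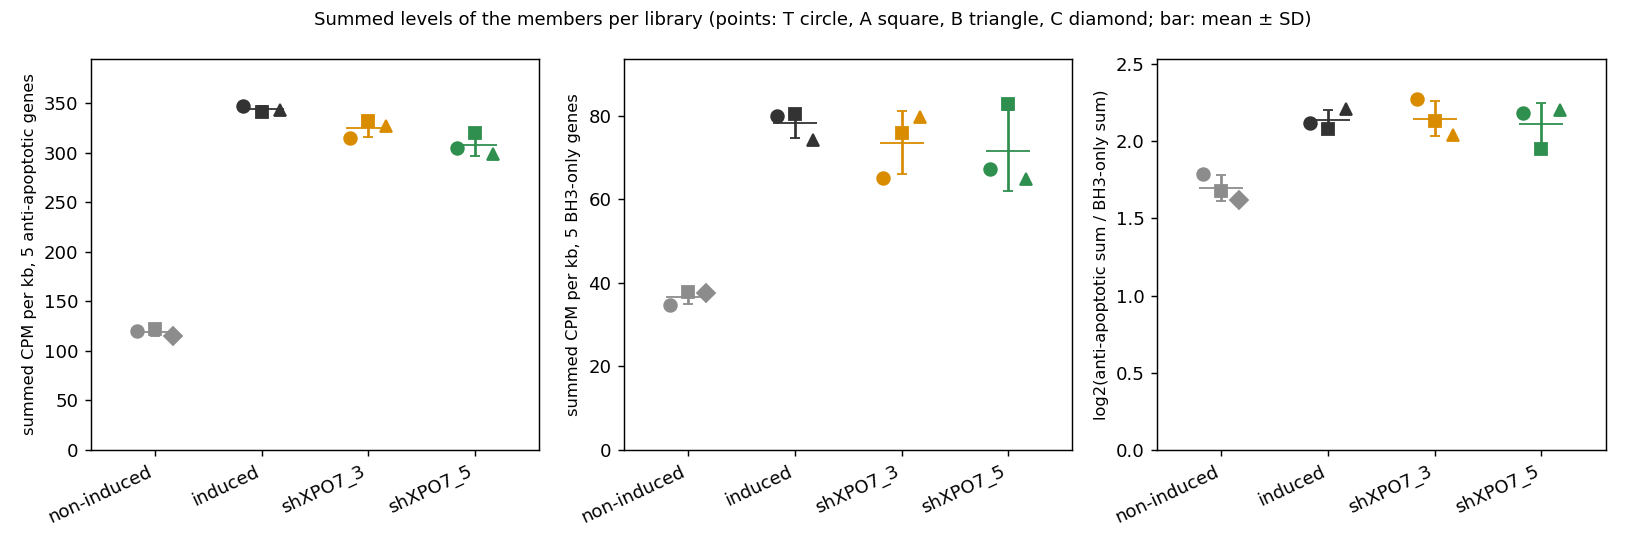
Summed CPM per kb of the 5 anti-apoptotic genes, of the 5 BH3-only genes, and the log2 ratio of the sums (vertical axes from 0), with 1 point per library and the mean ± SD (n = 3). Induction raised both sums, to 341 to 347 and 74.2 to 80.3 CPM per kb. The anti-apoptotic sum was lower in every knockdown library (315 to 332 with shXPO7_3, 298 to 320 with shXPO7_5) than in the induced ones. The ratio of the knockdown libraries (1.95 to 2.27) overlaps with that of the induced ones (2.08 to 2.21).

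BMF, on the list for its higher level in the knockdown libraries, was at 33.7, 28 and 27.9 CPM in the shXPO7_3 libraries (T, A and B), against 16.8, 17.9 and 18.8 CPM in the induced ones. All 3 lay above every induced and non-induced library, and the mean was 1.67-fold that of the induced group (log2 fold change 0.74, SE 0.097, n = 3). With shXPO7_5 it was at 30.6, 25.2 and 27.7 CPM (T, A and B), again with no overlap, and 1.56-fold (log2 fold change 0.64, SE 0.097, n = 3). Because these values chose BMF, no test is given. The libraries with the highest BMF level, replicate T of both shRNAs, were also among the 3 with the strongest GC trend, and BMF transcripts have a GC content of 56.7%. The steepest trend was that of shXPO7_5 replicate B, where BMF was at 27.7 CPM, beside 28 and 27.9 CPM in shXPO7_3 replicates A and B. The part of the GC trend in these values was not tested. After the GC and length correction the log2 fold changes were 0.72 and 0.49. Without replicate T of its own group the value was 0.64 for shXPO7_3 and 0.57 for shXPO7_5. Between the shRNAs the groups overlapped (log2 fold change of shXPO7_5 against shXPO7_3 -0.10, SE 0.096), while XPO7 itself was 1.89-fold higher with shXPO7_5.

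The 5 genes whose levels followed BMF most closely over the 12 libraries, by the root mean square difference of centred log2 CPM, were IRF1 (0.153), TENT5C (0.157), KCNAB3 (0.174), FRAT2 (0.182) and DLL4 (0.183), against a median of 0.512 over all genes. IRF1, an interferon-responsive transcription factor, was at 24.4 to 28.8, 35.1 to 36.2, 42.4 to 49.4 and 42.5 to 51.3 CPM in the non-induced, induced, shXPO7_3 and shXPO7_5 libraries. DLL4, a Notch ligand, was at 9.64 to 11.2, 9.1 to 9.96, 15 to 17.7 and 14.1 to 17.5 CPM, so that its knockdown groups stood above the others. These genes were selected by likeness in the same libraries, and their values are a description.

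None of the other 9 members was called with shXPO7_3, where 0.124% of all genes tested were called by edgeR (19 of 15284). At an unadjusted p under 0.05 there was 1 member (BCL2), against 979 of all genes. Leaving BMF aside, 3 of these 9 had no overlap between the groups, BBC3 higher and BCL2L2 and MCL1 lower, beside 14.6% of all genes tested. BCL2 was at 1.62, 1.39 and 1.25 CPM with shXPO7_3 against 0.984, 1.31 and 0.948 CPM in the induced libraries. These overlap, and the log2 fold change was 0.40 (SE 0.16, adjusted p = 0.664 by edgeR). Set against the fall on induction, this level remained under the 4 to 4.66 CPM of the non-induced libraries. BBC3 was at 6.94, 6.13 and 6.07 CPM (log2 fold change 0.25, SE 0.12, adjusted p = 0.804 by edgeR). MCL1 was at 1120, 1220 and 1200 CPM (log2 fold change -0.08, 95% confidence interval -0.21 to 0.05, adjusted p = 0.999 by edgeR).

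With shXPO7_5, 0 of 9 members tested were called, where 0.589% of all genes tested were called (90 of 15284), and 5 had an unadjusted p under 0.05, against 3302 of all genes. By DESeq2, 1 member was called, where 426 of 15284 genes tested were called. Leaving BMF aside, 5 of these 9 had no overlap between the groups, BCL2 and BBC3 higher and BCL2L2, MCL1 and BCL2A1 lower, beside 26.8% of all genes tested. BCL2A1 lay at the threshold. It was at 4.04, 4.44 and 3.66 CPM (T, A and B), below every induced library, with a 1.59-fold lower level (log2 fold change -0.67, SE 0.13, adjusted p = 0.05003 by edgeR). It was called in 7 of 21 other fits, among them DESeq2 (adjusted p = 0.0141), the fit without shXPO7_5 replicate A (adjusted p = 0.0254) and that without shXPO7_3 replicate T (adjusted p = 0.0401). Over all genes tested, these fits called 426 of 15284, 3634 of 15790 and 181 of 15525, in the same order. BCL2A1 transcripts are poor in GC (40.3%), and after the correction the log2 fold change was -0.35 (adjusted p = 0.101 by edgeR). Whether the GC trend had a part in its level was not tested. In the direct comparison with shXPO7_3, whose libraries were at 4.97, 6.34 and 5.51 CPM, it was lower without overlap but not called (log2 fold change -0.47, 95% confidence interval -0.76 to -0.18, adjusted p = 0.388 by edgeR).

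BCL2 was at 1.45, 1.66 and 1.53 CPM with shXPO7_5 (log2 fold change 0.54, SE 0.17, adjusted p = 0.144 by edgeR), above all induced libraries and again far below the non-induced ones. MCL1 was at 1080, 1160 and 1030 CPM (log2 fold change -0.19, SE 0.06, adjusted p = 0.155 by edgeR) and BCL2L2 at 57.1, 64.2 and 64 CPM (log2 fold change -0.21, SE 0.07, adjusted p = 0.171 by edgeR). Both were lower in every library than in the induced ones and remained above all non-induced libraries. BCL2L2 was called after the GC correction (log2 fold change -0.34, adjusted p = 0.0175 by edgeR). BBC3, with the highest transcript GC content of the members (64.5%), was at 6.13, 6.43 and 7.64 CPM, with its top value in replicate B, the library with the steepest GC trend. Its log2 fold change was 0.33 (SE 0.12, adjusted p = 0.184 by edgeR), and 0.10 after the correction. Whether the GC trend had a part in the level of BBC3 was not tested.

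PMAIP1 also differed among the knockdown libraries, and the part of the GC trend in this was not tested. It was at 87.2 CPM in shXPO7_3 replicate T and at 92.1 and 85.7 CPM in shXPO7_5 replicates T and B, the 3 libraries with the strongest GC trend. In the other 3 knockdown libraries it was at 116, 125 and 132 CPM, within the range of the induced group or close to it. The log2 fold change was -0.20 (SE 0.18) with shXPO7_3 and -0.28 (SE 0.18) with shXPO7_5 (adjusted p = 0.999 and 0.309 by edgeR), and -0.17 and -0.12 after the correction. PMAIP1 transcripts have a GC content of 43.6%. Leaving out shXPO7_5 replicate A, the library of that group without a strong GC trend, brought 4 members (BCL2L2, MCL1, BCL2A1 and PMAIP1, all lower) past the threshold together with 3634 of 15790 genes tested, and PMAIP1 was then at -0.50 (adjusted p = 0.0443 by edgeR). BCL2L1, BCL2L11 and BID overlapped with the induced group under both shRNAs. BCL2L1 was at 105 to 129 and 120 to 142 CPM, BCL2L11 at 1.66 to 1.78 and 1.64 to 2.23 CPM, and BID at 71.9 to 77.6 and 73.2 to 83.8 CPM with shXPO7_3 and shXPO7_5.

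Compared directly, shXPO7_5 and shXPO7_3 did not differ in a called member (0 of 9 tested, 1 at an unadjusted p under 0.05, namely BCL2A1), where 0.0131% of all genes tested were called by edgeR (2 of 15284) and 1819 had an unadjusted p under 0.05. By DESeq2, 0 members were called as well, where 27 of 15284 genes tested were called.

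Other genes of the apoptosis pathway were taken from 5 lists of 49 genes in all, of which 42 passed the filter. On induction 12 rose and 7 fell, 19 of 42, beside 50.9% of all genes tested that were called, 24.8% higher and 26.1% lower. The lists had a median log2 fold change of 0.06 against -0.01 over all genes. Of the effectors and remaining BCL2 family genes, 1 of 8 was called. BAK1, the pore-forming effector that MCL1 and BCL-XL restrain, rose from 14.9, 15.1 and 14.3 CPM to 27.2, 27.5 and 29.7 CPM (log2 fold change 0.93, SE 0.093, adjusted p = 4.23e-06 by edgeR). BAX, the other effector, was at 83.2 to 88.9 CPM in the non-induced and 81.1 to 83.6 CPM in the induced libraries (log2 fold change -0.08, adjusted p = 0.507 by edgeR). Of the 13 genes of the apoptosome, the caspases and the proteins released from mitochondria, 5 rose and 2 fell, beside the 50.9% called of all genes. The largest changes were those of CASP6, an executioner caspase (log2 fold change -0.98), HTRA2, a released protease that counters caspase inhibitors (0.79), CASP9, the initiator caspase of the apoptosome (0.64), and CASP2 (-0.49).

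Of 7 inhibitors of caspases measured, 2 rose and 1 fell, where 50.9% of all genes tested were called. XIAP, which blocks caspases directly, had a log2 fold change of 0.74 and CFLAR, which blocks caspase 8, one of 0.53. BIRC5 (survivin), which is also a mitotic gene, fell from 61.8 to 73.5 CPM to 6.67 to 8.76 CPM (log2 fold change -3.15, SE 0.15, adjusted p = 5.1e-09 by edgeR). Among 7 transcription factors known to act on members, 1 rose and 3 fell. E2F1, a cell cycle regulator that activates BH3-only genes, had a log2 fold change of -1.35, DDIT3, a stress factor that acts on BCL2L11, one of 0.33 and FOXO3, which activates BCL2L11 and BBC3, one of -0.26. Of the 7 partners and turnover genes, 3 rose and 1 fell. BTRC, part of a ubiquitin ligase that targets BCL2L11, changed by 0.83, VDAC2, which holds BAK1 at the mitochondrion, by 0.30, DYNLL1, the dynein light chain partner of BCL2L11, by 0.21 and DYNLL2, the partner of BMF, by -0.42 on the log2 scale.

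**Figure D4:**
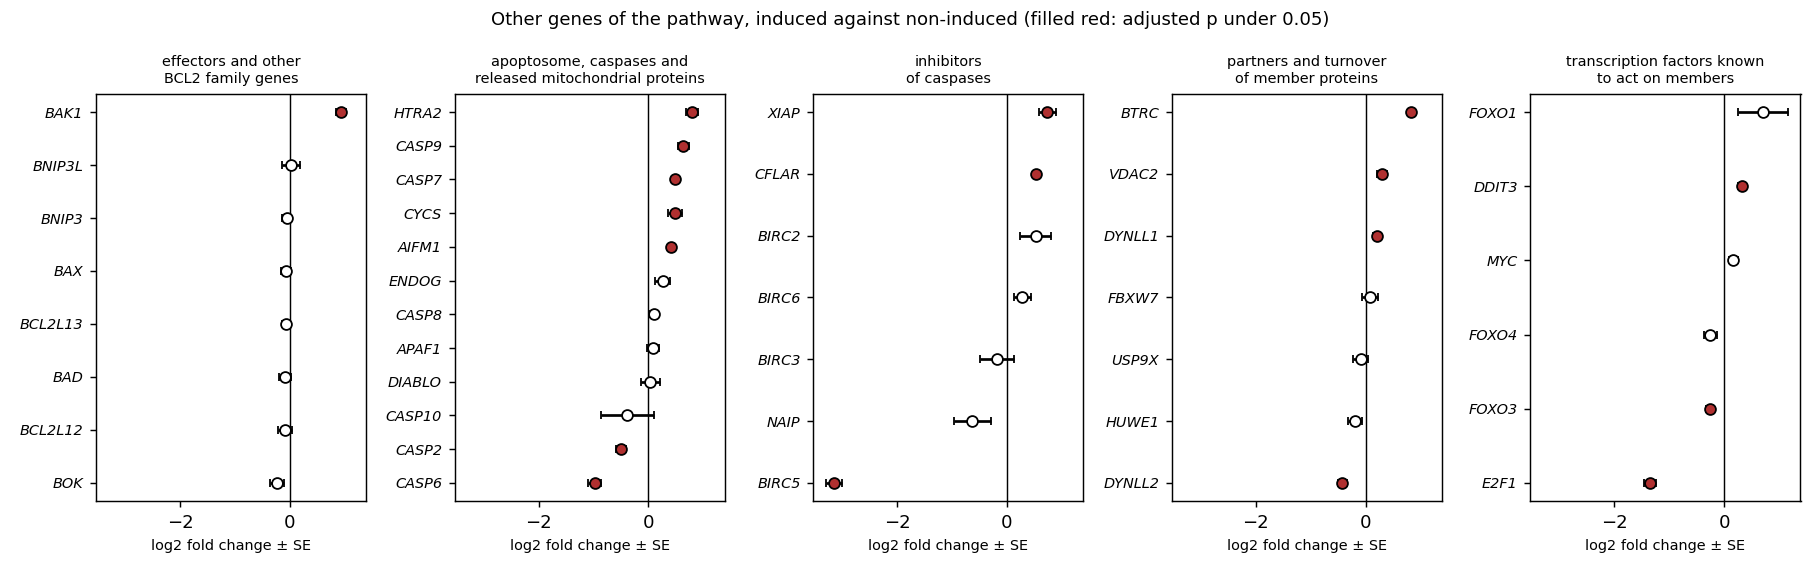
Log2 fold change ± SE on induction (horizontal axes, 3 libraries against 3) of pathway genes that passed the filter, in the 5 lists. BIRC5 at -3.15 lies far below the rest, and BAK1 at 0.93 is the 1 called gene of its list, where 50.9% of all genes tested were called.

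With either shRNA, 0 of the 42 pathway genes were called by edgeR, and 2 and 9 had an unadjusted p under 0.05. Over all 15284 genes, 19 and 90 were called (0.124% and 0.589%), and 979 and 3302 had an unadjusted p under 0.05. BIRC5 was closest among these lists in the fits tried, and is named for that after its values were seen. It was at 13, 11 and 9.47 CPM with shXPO7_3 and 12.6, 10.1 and 12.8 CPM with shXPO7_5, above every induced library and far under the non-induced ones. The log2 fold changes were 0.57 (SE 0.15, adjusted p = 0.24 by edgeR) and 0.66 (SE 0.15, adjusted p = 0.0685 by edgeR). By DESeq2 both were called (adjusted p = 0.0441 and 0.00346), as they were after the GC correction (adjusted p = 0.0143 and 0.0109 by edgeR). Without shXPO7_5 replicate A, 13 pathway genes were called with shXPO7_5, where 3634 of all 15790 genes tested were called. Among the 13, XIAP, BIRC2, BIRC3, BIRC6, CYCS, USP9X and FBXW7 were lower, and BAK1, BAD, BCL2L12 and BIRC5 were higher. The shXPO7_5 libraries left, T and B, were those with GC trends of 0.61 and 0.78. The part of the GC trend in these calls was not tested.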

How the data were processed

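RNA-seq counts of 12 libraries in 4 groups of 3 were analysed. The authors deposited unnormalized counts of reads per gene. CASAVA 1.8.4, TopHat2 2.0.11 and featureCounts 1.18.0 are listed in the submitters' processing notes, together with hg19 and GRCh37 as builds. How strand and multiply matching reads were treated, and on which annotation, is not given in the sources used here. Genes with overlapping exons or near-identical copies are therefore uncertain. Groups and replicate letters came from the sample titles, and genes were matched to symbols by Ensembl identifier (49517 genes, 99.49% of counts). The 92 spike-in entries were 0 and were left out.

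Counts were fitted in R 4.3.3 with edgeR 4.0.16 (filterByExpr, TMM scaling, quasi-likelihood test, 4 groups, no covariates), with Benjamini-Hochberg adjustment over 15284 genes and a threshold of 0.05. Libraries of the same group differed beyond sampling noise (4.27 to 56.2 in chi-square per gene), so none was counted as repeated sequencing of another. Whether they came from separate cultures cannot be told from these values. CPM per kb used the exon union of GENCODE release 29, which is on GRCh38, matched by identifier. The GC and length correction subtracted from each library a spline (5 degrees of freedom) fitted to the log ratios to the overall mean; 97.3% of genes had both values. As alternatives, scaling by RLE or upper-quartile factors was tried, with no filter beyond 1 count, a filter of 1 CPM in 6 libraries, the replicate letter as a block, the GC and length correction alone and with the block, a fit to the 2 groups compared, DESeq2 1.42.0, an added log2 fold change of at least 1, and each library left out. The model was tested on simulated data.

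The members, gene lists and comparisons were chosen with earlier results of these data known. Named genes were all members, up to 4 called genes of each pathway list with the largest change on induction, any pathway gene called in a knockdown comparison, the 5 genes most like BMF, and XPO7. BAX, BIRC5 in the knockdowns and genes called in single alternatives were named after their values were seen. Values of 2 pathway genes are not reported here.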

Additional observations from a re-analysis of the deposited data

How the results depend on the processing

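All members kept the direction of their change on induction in the 21 other fits of each, and the calls of BCL2, BCL2L2, MCL1, BCL2A1, BCL2L11, BBC3 and PMAIP1 held in all of them; BID lost its call in 8. Requiring a log2 fold change of at least 1 left 5 members and 2 pathway genes called. By size of change on induction, CASP6 (log2 fold change -0.98) ranked 2827 of the 15284 genes tested, so at most 2827 genes reached a size of 1. The replicate letters were not treated as pairs. Of 15 same-letter pairs, 7 had correlated deviations over 0.1 (range -0.17 to 0.55), and different-letter pairs ranged from -0.59 to 0.43. These values do not settle whether the letters mark pairs. With the letter as a block, 1 member was called with shXPO7_5 (BCL2A1, adjusted p = 0.0242 by edgeR), and BID was not called on induction (adjusted p = 0.125 by edgeR). Letter C occurs in the non-induced group only, so in the block fit that library adds nothing to the comparison on induction. With shXPO7_5, 1 member was called each under RLE factors, no filter, the 1 CPM filter, the GC correction, the block with that correction, and DESeq2, and 0 to 4 with a library left out. Pathway genes called with shXPO7_5 numbered 1 without the filter, 1 after the GC correction, 3 with block and correction, 1 by DESeq2 and 0 to 13 with a library left out; with shXPO7_3, 1 was called after the correction, with block and correction, and by DESeq2. The cause of these differences was not tested. Over all genes, calls with shXPO7_3 were 19, and 8 under upper-quartile factors, 30 without the filter, 382 after the GC correction, 481 with the block as well, 2 in the fit of 2 groups and 88 by DESeq2; with shXPO7_5 they were 90, and 127 under RLE factors, 217, 503, 1040, 10 and 426 in the settings named last, 149 with the block alone, and with a library left out 1 to 24 and 2 to 3634, the highest without shXPO7_5 replicate A.

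Small values changed sign: BID with shXPO7_3 was -0.002 without the filter and -0.03 to 0.029 with a library left out; BCL2L1 with shXPO7_5 was -0.004 after the GC correction, with or without the block. Between the shRNAs, BBC3 was -0.134 and -0.138 and PMAIP1 0.05 and 0.042 after the correction without and with the block. With a library left out, BCL2L11 ran from -0.018 to 0.228, BBC3 from -0.013 to 0.153 and PMAIP1 from -0.299 to 0.045. BMF with shXPO7_5 was 0.488 with block and correction. Without division by length, the log2 ratio of the sums was 1.93, 2.68, 2.62 and 2.56 in the non-induced, induced, shXPO7_3 and shXPO7_5 groups. Depth limits BCL2A1 before induction (7 to 13 counts) and BCL2L11 (33 to 136 counts).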
